A study of Mus musculus with 9 samples.

Results

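The immediate-early activity genes described here are 10 genes chosen by name, Fos, Fosb, Junb, Egr1, Arc, Npas4, Nr4a1, Nr4a2, Nr4a3 and Homer1, and all 10 were among the 31053 genes listed. Their RNA was counted as unique molecular identifiers (UMIs) in single nuclei from the pooled cortex and hippocampus of 9 male C57BL/6 mice, with 1 mouse and 1 library each. The libraries fell into 3 groups of 3, young AAV-EGFP (mice 5 months old) and, at 19 months, the aged groups AAV-EGFP and AAV-B3GNT3. According to the paper, aged mice came from the National Institute on Aging and young mice from Jackson Laboratories. Supplier and age therefore cannot be told apart in comparisons with young mice. All mice had received an adeno-associated virus of capsid AAV-PHP.V1 into the blood 8 weeks earlier, so the controls carried a virus too. Its promoter, from the endothelial gene CLDN5, drove EGFP, a fluorescent protein, or EGFP joined to B3GNT3, a glycosyltransferase that lengthens O-linked sugar chains of mucin-like proteins. The virus was thus aimed at endothelial cells, which were few among the sorted nuclei. Because the ageing comparison (aged AAV-EGFP minus young AAV-EGFP) and the treatment comparison (aged AAV-B3GNT3 minus aged AAV-EGFP) share the 3 aged AAV-EGFP libraries, their values are set side by side only.

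Immediate-early genes are transcribed within minutes of synaptic activity, before any new protein is made. Calcium entry through receptors and channels activates kinases that act on factors already bound at the promoters, such as CREB at the cAMP response element and SRF at the serum response element. Fos, Fosb and Junb encode subunits of the AP-1 transcription factor, Egr1 a zinc finger factor, Npas4 a neuronal basic helix-loop-helix factor, and Nr4a1, Nr4a2 and Nr4a3 the orphan nuclear receptors of the NR4A family. Arc and Homer1 encode proteins of the excitatory synapse. In cortex and hippocampus these genes mark recently active neurons and take part in memory, and several also respond to injury and growth factors in glia and vessels.

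The promoters of the NR4A receptors, Fos, Npas4 and Homer1 are shown because these genes carry the neuronal results or are textbook CREB targets. Each is the 250 bases before the start of transcription in RefSeq (build GRCm38.p6), read 5′ to 3′ on the gene's strand. Capitals mark each TGACG or its reverse complement CGTCA, the core of the cAMP response element.
Nr4a3 (chr4:48045055-48045304, plus strand): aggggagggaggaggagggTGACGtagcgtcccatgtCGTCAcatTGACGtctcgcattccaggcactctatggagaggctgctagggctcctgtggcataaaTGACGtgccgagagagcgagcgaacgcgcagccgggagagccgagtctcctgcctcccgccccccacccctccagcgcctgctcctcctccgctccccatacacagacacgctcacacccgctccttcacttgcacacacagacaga
Nr4a1 (chr15:101266596-101266845, plus strand): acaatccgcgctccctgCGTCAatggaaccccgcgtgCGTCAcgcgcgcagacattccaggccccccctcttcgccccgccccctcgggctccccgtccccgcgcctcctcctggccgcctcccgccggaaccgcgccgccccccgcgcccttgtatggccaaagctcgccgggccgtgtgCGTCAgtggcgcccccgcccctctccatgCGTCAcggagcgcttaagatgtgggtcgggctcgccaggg
Nr4a2 (chr2:57124004-57124253, minus strand): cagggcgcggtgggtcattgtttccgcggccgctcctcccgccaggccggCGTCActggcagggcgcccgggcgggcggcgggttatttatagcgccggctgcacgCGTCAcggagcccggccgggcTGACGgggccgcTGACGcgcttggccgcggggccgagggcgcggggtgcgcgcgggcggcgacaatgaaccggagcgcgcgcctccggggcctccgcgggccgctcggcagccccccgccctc
Homer1 (chr13:93303507-93303756, plus strand): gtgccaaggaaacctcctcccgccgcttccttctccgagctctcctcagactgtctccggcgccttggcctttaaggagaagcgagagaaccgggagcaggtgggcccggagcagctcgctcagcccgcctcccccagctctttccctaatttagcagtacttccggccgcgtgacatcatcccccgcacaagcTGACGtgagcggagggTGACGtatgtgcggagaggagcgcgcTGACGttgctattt
Npas4 (chr19:4989972-4990221, minus strand): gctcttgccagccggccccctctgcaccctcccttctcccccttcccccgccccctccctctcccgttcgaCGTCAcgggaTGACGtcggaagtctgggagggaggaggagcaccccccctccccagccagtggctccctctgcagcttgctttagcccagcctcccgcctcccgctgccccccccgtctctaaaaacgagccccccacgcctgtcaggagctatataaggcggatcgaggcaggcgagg
Fos (chr12:85473640-85473889, plus strand): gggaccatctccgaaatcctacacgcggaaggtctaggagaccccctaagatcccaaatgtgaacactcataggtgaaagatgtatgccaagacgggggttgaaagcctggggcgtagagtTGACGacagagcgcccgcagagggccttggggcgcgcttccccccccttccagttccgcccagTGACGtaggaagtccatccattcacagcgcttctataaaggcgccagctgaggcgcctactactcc

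A RefSeq promoter entry was matched for 8 of the 10 genes, and the core stood on either strand in 8 of the 8. Over all genes with an entry it stood in 5347 of 27025 (19.8%), and over single entries in 5836 of 32851 promoters of the same length (17.8%). Nr4a1, Nr4a2 and Nr4a3 each held 4 cores, a number reached or passed by 45 of the 32851 promoters (0.137%). In Nr4a3 the cores began 231, 213, 205 and 147 bases before the start. Homer1 has 2 entries, and the one shown held 3 cores and the other 0. Fos and Npas4 held 2 cores, and Fosb and Junb 1. The full palindrome TGACGTCA was in 0 of the 8 and in 1.77% of all genes with an entry. The AP-1 letters TGANTCA were in 0 of the 8 and in 7.82% of these genes. The CArG box to which SRF binds was in 0 of the 8 and 1.62% of all genes with an entry. The Egr site GCGTGGGCG was in 0 of the 8 and 0.622%. Both strands were searched, and the core lies within the palindrome. Egr1 and Arc had no entry, and sites more than 250 bases before the start were not searched. These matches describe letters and not binding.

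On GRCm38 Nr4a3 spans chr4:48045153-48086447 and Homer1, the longest of the 10, chr13:93299635-93405129. Reads were counted per gene, so the Homer1 values cover its long constitutive transcript as well as the short activity-induced Homer1a, and these were not separated. Junb at chr8:84974484-84978718 overlaps Prdx2 on the other strand.

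Of 77823 barcodes, 70340 nuclei were kept, 5775 to 9276 per library, with a median of 2981 to 5281 UMIs per nucleus and 47332047 to 79964605 UMIs per library. Libraries shared 7 to 37 barcodes by pair, in 36 pairs. Levels are given as CPM, the counts scaled to a common total, of UMIs summed per library and cell class. A gene was said to rise or fall at an adjusted p under 0.05 in edgeR's quasi-likelihood test. The Benjamini-Hochberg adjustment was over all genes tested in that class. Each percentage of all genes is the share past this edgeR threshold in the fit with no alternative setting. It is no background for counts at an unadjusted p, from DESeq2 or under other settings. For such counts in edgeR or DESeq2 no share of all genes is given. Malat1, a nuclear RNA, took 3.38 to 3.65% of UMIs in the aged AAV-EGFP libraries against 2.38 to 3.09% in young AAV-EGFP and 2.61 to 2.73% in aged AAV-B3GNT3. Free RNA, estimated as an upper limit from oligodendrocyte markers in excitatory neurons, was 7.42 to 10.3% in aged AAV-EGFP against 14.1 to 15% and 11.9 to 14.7% in the other groups. Aged AAV-EGFP replicate 2 stood apart from its group in several classes, and calls of the 10 genes that rest on it are given with and without it. The part of Malat1 and free RNA in the results on neurons was not tested beyond subtracting the estimate.

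In excitatory neurons (20935 nuclei), Nr4a3 and Homer1 fell with age, and 9 of the 10 genes were lower in aged AAV-EGFP than in young AAV-EGFP, with a median log2 change of -0.45 against 0.02 over all 16928 genes tested. These were 2 of 10 genes past the threshold where 14.1% of all genes passed it. With AAV-B3GNT3, 0 of 10 passed in edgeR, against 2.46% of all genes. DESeq2 called 0, and 1 was at an unadjusted p under 0.05 in edgeR. Of the 10 genes 8 were higher with treatment, with a median of 0.20. Neuron types differed in number by library, such as layer 6 corticothalamic neurons with 155 to 604 nuclei. The part of this make-up in the levels of the class was not tested.

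Nr4a3, an orphan nuclear receptor that acts as a transcription factor, was at 55.6, 40.9 and 34.6 CPM in young AAV-EGFP replicates 1, 2 and 3, at 35.8, 12.6 and 18.7 in aged AAV-EGFP and at 45.5, 48.9 and 38 in aged AAV-B3GNT3. Aged AAV-EGFP replicates 2 and 3 were the lowest of the 9 libraries, replicate 1 lay among the young libraries, and the 3 treated libraries were all above the 3 aged controls. The log2 change with age was -0.98 ± 0.30 (SE; adjusted p = 0.0477) and with treatment 0.99 ± 0.30 (SE; adjusted p = 0.0831). Treated aged against young mice differed by 0.012 ± 0.29 (SE; adjusted p = 0.99). The fall with age ranged from -1.49 to -0.69 when single libraries were left out and lost the threshold in 7 of the 9 cases, which were without young replicate 1 (-0.76), young replicate 2 (-1.02), young replicate 3 (-1.12), aged AAV-EGFP replicate 2 (-0.69), aged AAV-EGFP replicate 3 (-0.87), aged AAV-B3GNT3 replicate 1 (-0.98) or aged AAV-B3GNT3 replicate 2 (-0.98). The call was also lost in DESeq2 (-0.98, adjusted p = 0.0817) and with free RNA subtracted (-1.03, adjusted p = 0.0511). In edgeR it was lost too with the compared groups alone (-0.97, adjusted p = 0.0644). The same held with no upper limit on genes per nucleus (-0.88, adjusted p = 0.0656).

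Homer1, a scaffold protein of the postsynaptic density, was at 583, 796 and 612 CPM in young AAV-EGFP, 384, 374 and 334 in aged AAV-EGFP and 396, 442 and 401 in aged AAV-B3GNT3. All 6 aged libraries lay below all 3 young libraries, and all 3 treated libraries were above the aged controls by a small margin. The changes were -0.87 ± 0.12 (SE; adjusted p = 0.00512) with age and 0.18 ± 0.12 (SE; adjusted p = 0.398) with treatment, and treated aged mice differed from young mice by -0.68 ± 0.12 (SE; adjusted p = 0.0139). Homer1 was the 1 gene of the 10 to pass in the comparison of treated aged with young mice, where 3.64% of all genes passed. The fall with age held without any 1 library (-0.95 to -0.72). The difference between treated aged and young mice was -0.53 to -0.76 and lost the threshold without young replicate 2 (-0.53), aged AAV-B3GNT3 replicate 1 (-0.65) or replicate 3 (-0.66).

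Arc, which encodes a protein of the postsynapse that removes AMPA receptors, was at 30.2, 28.1 and 47 CPM in young, 14.1, 10.1 and 31.9 in aged AAV-EGFP and 22.5, 24.3 and 26.8 in treated libraries. The aged controls ranged from the lowest of the 9 to the second highest, and so overlapped the young libraries. Its log2 change of -0.91 ± 0.33 (SE; adjusted p = 0.0849) with age did not pass, nor did 0.40 ± 0.34 (SE; adjusted p = 0.503) with treatment. Egr1 was at 51.5, 41.7 and 62.3 CPM in young, 32.5, 32.3 and 57.9 in aged AAV-EGFP and 51.5, 50.1 and 61 in treated libraries, and aged AAV-EGFP replicates 1 and 2 were the lowest. The change of Egr1 with age was -0.34 ± 0.21 (SE; adjusted p = 0.284) and with treatment 0.41 ± 0.21 (SE; adjusted p = 0.27).

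Npas4 was at 16.7, 13.2 and 18.4 CPM in young libraries, 13.3, 7.83 and 12.3 in aged controls and 9.93, 11.4 and 13.7 in treated ones. It was below every young library in 4 of the 6 aged libraries, with a change of -0.53 ± 0.20 (SE; adjusted p = 0.0951) with age and 0.074 ± 0.20 (SE; adjusted p = 0.862) with treatment. The other NR4A receptors, Nr4a1 and Nr4a2, overlapped between groups. Nr4a1 was at 90.2, 76.5 and 79.1 CPM in young, 77.1, 68.4 and 67.3 in aged AAV-EGFP and 85.8, 74 and 73.8 in treated libraries, with a change of -0.21 ± 0.10 (SE; adjusted p = 0.182) with age. Nr4a2 was at 47.8, 32.2 and 29.2 CPM in young, 30.1, 29.3 and 25.1 in aged AAV-EGFP and 25.3, 26.8 and 30.6 in treated libraries with a change of -0.37 ± 0.17 (SE; adjusted p = 0.15). Fosb and Fos, at the low end of the counts, also overlapped. Fosb had 6.69, 4.52 and 5.86 CPM in young, 4.59, 3.17 and 4.11 in aged AAV-EGFP and 5.54, 4.33 and 3.93 in treated libraries and a change of -0.53 ± 0.21 (SE; adjusted p = 0.108) with age. Fos had 4.07, 5.0 and 7.81 CPM in young, 4.5, 3.38 and 6.58 in aged AAV-EGFP and 4.24, 4.58 and 8.96 in treated libraries and a change of -0.23 ± 0.33 (SE; adjusted p = 0.676).

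Junb, the AP-1 partner that also answers to injury, was the 1 gene of the 10 that was higher in aged AAV-EGFP than in young AAV-EGFP excitatory neurons. It was at 10.1, 11.6 and 18.7 CPM in young, 11.3, 21.4 and 26.8 in aged AAV-EGFP and 11, 13.7 and 23.4 in treated libraries. The groups overlapped, replicate 1 was the lowest in each group, and its change with age was 0.56 ± 0.33 (SE; adjusted p = 0.261).

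**Figure D1:**
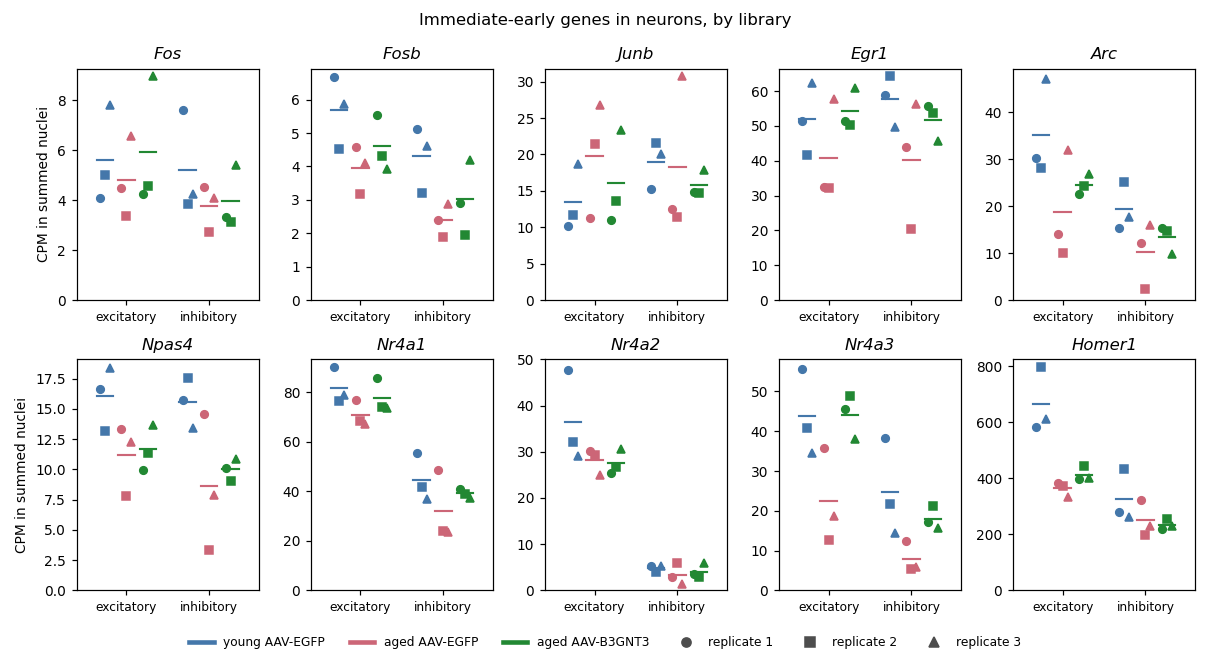
Levels (CPM, linear axes from 0, own scale per gene) of the 10 genes in summed excitatory and inhibitory neuron nuclei, with 1 point per library, symbols for replicates and bars for group means. In excitatory neurons the 3 aged AAV-EGFP points of Homer1 (384, 374 and 334 CPM) lie below the 3 young ones, and in the Nr4a3 panels the aged AAV-EGFP means are the lowest of the 3 groups.

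In inhibitory neurons (8034 nuclei) Nr4a3 alone fell with age, and 10 of 10 genes were lower. It was 1 of 10 past the threshold, against 3.84% of all genes. With treatment 0 of 10 passed in edgeR, against 0.621% of all genes, and in treated aged against young mice 0, against 0.670%. At an unadjusted p under 0.05 there was 1 in each, and DESeq2 called 1 and 0. Nr4a3 was at 38.3, 21.6 and 14.3 CPM in young AAV-EGFP, 12.3, 5.41 and 6.0 in aged AAV-EGFP and 17.1, 21.2 and 15.6 in aged AAV-B3GNT3. Every aged control library lay below every young and every treated library, and the change was -1.69 ± 0.34 (SE; adjusted p = 0.027) with age and 1.22 ± 0.35 (SE; adjusted p = 0.107) with treatment. The fall lost the threshold without young replicate 1 (-1.26), aged AAV-EGFP replicate 2 (-1.49) or aged AAV-EGFP replicate 3 (-1.52). The class joined clusters of 4459 and 3575 nuclei, the second led by Drd2, Rgs9 and Rarb, and so held striatal-like neurons, described below. Drd1 and Drd2 striatal-like neurons numbered 73 to 349 and 58 to 296 by library. The part of this make-up in the levels of the class was not tested.

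The other members in inhibitory neurons did not pass. Homer1 was at 279.7, 433 and 262 CPM in young, 324, 196 and 232 in aged AAV-EGFP and 219, 254 and 229 in treated libraries. Aged AAV-EGFP replicate 2 held the lowest value of the 9 libraries for 8 of the 10 genes, such as Egr1 (20.5 CPM), Arc (2.40), Npas4 (3.33) and Nr4a3 (5.41), and replicate 1 of the same group lay within the young range for Nr4a1, Npas4 and Homer1.

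Egr1, Arc and Npas4 had their lowest value in the same library and did not pass. Egr1 was at 59, 64.3 and 49.7 CPM in young, 44.1, 20.5 and 56.3 in aged AAV-EGFP and 55.8, 53.6 and 45.6 in treated libraries (-0.52 ± 0.26 SE, adjusted p = 0.232 with age). Arc was at 15.3, 25.1 and 17.7 CPM in young, 12.1, 2.4 and 16.1 in aged AAV-EGFP and 15.4, 14.8 and 9.84 in treated libraries (-0.93 ± 0.43 SE, adjusted p = 0.203). Npas4 was at 15.8, 17.6 and 13.4 CPM in young, 14.6, 3.33 and 7.91 in aged AAV-EGFP and 10.1, 9.02 and 10.8 in treated libraries (-0.90 ± 0.34 SE, adjusted p = 0.134). For these 3 genes aged AAV-EGFP replicate 1 or 3 lay within the young range, so that the groups overlapped.

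Of the other members in inhibitory neurons, Nr4a1 was at 55.5, 41.6 and 37 CPM in young, 48.5, 23.9 and 23.7 in aged AAV-EGFP and 41.1, 39 and 37.5 in treated libraries (-0.50 ± 0.24 SE, adjusted p = 0.216 with age). Fosb was at 5.12, 3.2 and 4.6 CPM in young, 2.41, 1.87 and 2.87 in aged AAV-EGFP and 2.92, 1.96 and 4.18 in treated libraries (-0.82 ± 0.32 SE, adjusted p = 0.145), and its aged controls lay below the young libraries. The remaining AP-1 genes and Nr4a2 overlapped between groups. Their changes with age were -0.47 ± 0.33 (SE; adjusted p = 0.392) for Fos, -0.035 ± 0.30 (SE; adjusted p = 0.958) for Junb and -0.53 ± 0.43 (SE; adjusted p = 0.475) for Nr4a2.

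The test of the difference of a change between excitatory and inhibitory neurons, with limma, called 0 of 14187 genes with age (1341 at an unadjusted p under 0.05) and 0 with treatment (694), so that the 2 neuron classes were not shown to differ.

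Clustering of the neuron nuclei, which left out the 10 genes and the related lists, gave 13 named neuron types with at least 30 nuclei in every library. Each name went to a single cluster, the largest that matched its markers. Smaller clusters that matched the same markers stayed unnamed, such as 381 nuclei matching the Vip list, so a type does not cover all neurons of its kind. The types of 1 library come from 1 mouse and are not independent of each other. Drd1 and Drd2 striatal-like neurons (1765 and 1663 nuclei), carry markers of a region, the striatum, that the labels do not name. Across the 130 pairs of gene and type, 88 were tested for ageing and for treatment. With age 16 of the 88 fell and 0 rose, in 8 of the 13 types. With treatment 3 rose and 0 fell, in 3 types. Of all genes, 0.480 to 14.1% passed with age and 0.0440 to 3.49% with treatment, by type. The count with age was 5 without aged AAV-EGFP replicate 2 and 31 without its replicate 1, and that with treatment was 0 without aged AAV-EGFP replicate 2, aged AAV-B3GNT3 replicate 1 or replicate 2, and 11 without aged AAV-EGFP replicate 1. With free RNA subtracted, 10 passed with age and 1 with treatment. With treatment the count was 5 with the compared groups alone and 5 with an offset for gene span. With no filter on low counts all 130 pairs were tested. Then 39 passed with age and 19 with treatment. The shares of all genes above belong to the fit with the filter and all libraries. No share of all genes is given for the counts under other settings, which are therefore not set against all genes. The median log2 change of the members tested was below 0 with age in 13 of 13 types (-1.06 to -0.19) and above 0 with treatment in 13 of 13 (0.12 to 0.97). Over all genes tested it was -0.0055 to 0.025 with age and 0.00099 to 0.019 with treatment.

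Gene by gene, Nr4a3 was lower with age in 13 of 13 types (median log2 change -1.10, from -2.58 to -0.07, 4 past the threshold) and higher with treatment in 13 of 13 (median 1.16, from 0.43 to 1.89, 2 past it). Homer1 was lower with age in 13 of 13 (5 past the threshold) and higher with treatment in 10 of 13 (1 past it). Egr1 was lower with age and higher with treatment in 13 of 13, with 0 past the threshold in either in edgeR's test. Nr4a1 was lower with age in 13 of 13 types (1 past it), Arc in 7 of 7 tested (2 past it) and Npas4 in 7 of 7 (2 past it). The other members had mixed directions with age. Junb was lower in 3 of the 8 types tested and higher in 5 (0 past the threshold), Nr4a2 lower in 4 of 7 (1 past it), Fosb lower in 3 of 4 (1 past it) and Fos lower in 2 of 3 (0 past it). With treatment Arc was higher in 7 of 7, Fos in 3 of 3, Nr4a1 in 11 of 13, Nr4a2 in 6 of 7, Junb in 5 of 8, Npas4 in 4 of 7 and Fosb in 2 of 4, with 0 past the threshold.

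**Figure D2:**
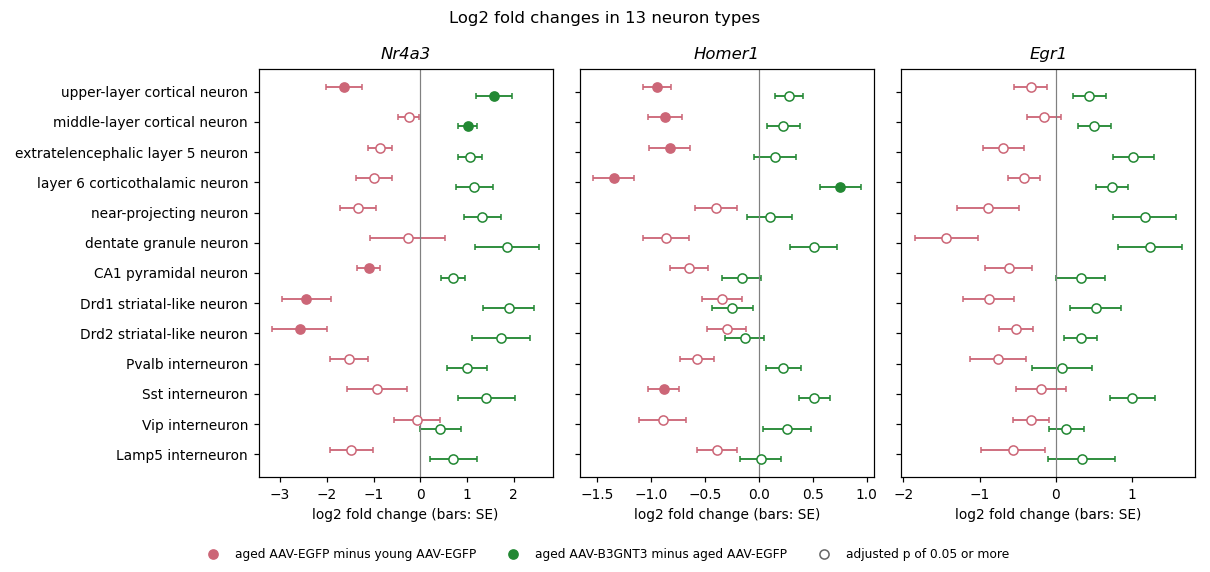
Log2 fold changes (linear axis, own scale per gene, bars are SE from the edgeR fit) of Nr4a3, Homer1 and Egr1 in 13 neuron types, red for age and green for treatment, with filled points at an adjusted p under 0.05. The red points lie left of 0 in all 13 types for the 3 genes, and the green points right of 0 in all 13 types for Nr4a3 and Egr1 and in 10 of 13 for Homer1.

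Upper-layer cortical neurons (3524 nuclei) held the most calls with age, 5 of 10, against 14.1% of all genes, and 1 of 10 with treatment against 2.71%. Nr4a3 was at 48, 22.9 and 29.2 CPM in young AAV-EGFP, 20.8, 3.58 and 10.6 in aged AAV-EGFP and 38.3, 31.3 and 26.6 in aged AAV-B3GNT3, so that all aged controls lay below all other libraries. It changed by -1.63 ± 0.38 (SE; adjusted p = 0.0108) with age and 1.57 ± 0.38 (SE; adjusted p = 0.038) with treatment. The fall was lost without aged AAV-EGFP replicate 3 (-1.62). The rise with treatment was lost without young replicate 3 (1.57), aged AAV-EGFP replicate 2 (1.07), aged AAV-EGFP replicate 3 (1.56), aged AAV-B3GNT3 replicate 1 (1.42) or aged AAV-B3GNT3 replicate 2 (1.58), and DESeq2 called neither (adjusted p = 0.0785 and 0.165). With free RNA subtracted the rise was 1.64 and did not pass (edgeR, adjusted p = 0.0595). With an offset for gene span it was 1.505 and did not pass (edgeR, adjusted p = 0.0507). Homer1 was at 703, 813 and 771 CPM in young, 460.1, 396 and 333 in aged AAV-EGFP and 419.6, 492 and 527 in treated libraries, with no overlap between young and aged libraries, and changed by -0.95 ± 0.13 (SE; adjusted p = 0.000372).

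Fosb was at 8.43, 4.46 and 9.58 CPM in young upper-layer neurons, 2.64, 1.5 and 3.05 in aged AAV-EGFP and 5.13, 5.5 and 3.33 in treated ones. The aged controls lay below all other libraries, with a change of -1.62 ± 0.37 (SE; adjusted p = 0.00905). Npas4 fell too (-1.05 ± 0.32 SE, adjusted p = 0.0382), with 16.2, 8.03 and 17.3 CPM in young and 8.25, 3.76 and 8.25 in aged controls, although young replicate 2 lay below aged replicates 1 and 3. Nr4a1, with 96.2, 65.3 and 82.8 CPM in young and 69.3, 50.2 and 56.7 in aged AAV-EGFP, changed by -0.48 ± 0.15 (SE; adjusted p = 0.0416), and the groups overlapped through young replicate 2. Calls were lost for Fosb without aged AAV-EGFP replicate 2 (-1.35), for Npas4 without young replicate 1 (-0.94), young replicate 3 (-0.86), aged AAV-EGFP replicate 2 (-0.74) or aged AAV-EGFP replicate 3 (-1.29) and for Nr4a1 without young replicate 1 (-0.37), young replicate 3 (-0.47), aged AAV-EGFP replicate 2 (-0.38), aged AAV-EGFP replicate 3 (-0.46), aged AAV-B3GNT3 replicate 1 (-0.48) or aged AAV-B3GNT3 replicate 2 (-0.48). That of Npas4 was also lost with free RNA subtracted (-1.11, adjusted p = 0.0531). With the compared groups alone Npas4 (edgeR, adjusted p = 0.0504) and Nr4a1 (edgeR, adjusted p = 0.0628) did not pass.

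Middle-layer cortical neurons had 1 of 10 called with age (9.38% of all genes) and 1 with treatment (1.14%). Homer1 fell from 814, 1155 and 767 CPM in young to 570.4, 503 and 424 in aged AAV-EGFP, a change of -0.87 ± 0.16 (SE; adjusted p = 0.00438). Nr4a3 was at 19.5, 19.5 and 14.6 CPM in young, 19.8, 10.8 and 16 in aged AAV-EGFP and 31.8, 27.4 and 31.6 in treated libraries, and the treated libraries lay above all others. Its change was 1.01 ± 0.21 (SE; adjusted p = 0.038) with treatment and -0.25 ± 0.22 (SE; adjusted p = 0.502) with age. The rise was lost without young replicate 3 (1.02), aged AAV-EGFP replicate 2 (0.79), aged AAV-B3GNT3 replicate 1 (0.99) or aged AAV-B3GNT3 replicate 2 (1.09), and with free RNA subtracted (1.02, adjusted p = 0.0556).

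In layer 6 corticothalamic neurons, which project back to the thalamus, 2 of 10 fell with age (12.3% of all genes) and 1 rose with treatment (3.49%). Homer1 was at 1161, 1424 and 1011 CPM in young, 580.2, 428 and 410.0 in aged AAV-EGFP and 659, 1090 and 636 in aged AAV-B3GNT3. All aged controls lay below all other libraries, with changes of -1.35 ± 0.19 (SE; adjusted p = 0.000486) and 0.76 ± 0.19 (SE; adjusted p = 0.0302), and the rise with treatment was lost without aged AAV-EGFP replicate 2 (0.67), aged AAV-EGFP replicate 3 (0.66), aged AAV-B3GNT3 replicate 1 (0.88) or aged AAV-B3GNT3 replicate 2 (0.47), and in DESeq2 (0.75, adjusted p = 0.129). Arc was at 58.3, 66 and 105 CPM in young, 34.6, 13.6 and 49.3 in aged AAV-EGFP and 47.6, 64 and 61.1 in treated libraries. The change of Arc with age was -1.26 ± 0.30 (SE; adjusted p = 0.0107), and aged AAV-EGFP replicate 2 was the lowest library. It was lost without young replicate 3 (-0.96), and in DESeq2 (adjusted p = 0.0896).

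Extratelencephalic layer 5 neurons, which send axons to the brainstem and spinal cord, had 2 of 8 tested genes past the threshold with age (1.99% of all genes) and 0 with treatment (4 at an unadjusted p under 0.05, 0 in DESeq2, 0.514%). Arc fell from 17.8, 16.6 and 43.9 CPM in young to 9.71, 4.86 and 6.4 in aged AAV-EGFP, without overlap, and the treated libraries were at 14.6, 15.3 and 17.1. The change was -1.90 ± 0.39 (SE; adjusted p = 0.0119), and the call was lost without young replicate 3 (-1.30) or aged AAV-EGFP replicate 2 (-1.60). Homer1 was at 524, 887 and 650.3 CPM in young, 446, 435 and 275 in aged AAV-EGFP and 352, 432 and 507 in treated libraries. All aged libraries lay below the young ones, with a change of -0.83 ± 0.19 (SE; adjusted p = 0.025) that was lost without young replicate 2 (-0.60), young replicate 3 (-0.86), aged AAV-EGFP replicate 2 (-0.92) or aged AAV-EGFP replicate 3 (-0.64).

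CA1 pyramidal neurons of the hippocampus had 2 of 8 past the threshold with age (1.81%) and 0 with treatment (1 at an unadjusted p under 0.05, 0 in DESeq2, 0.906%). Nr4a3 was at 92.8, 80.9 and 111 CPM in young, 63.6, 28.8 and 41 in aged AAV-EGFP and 53.9, 100 and 66.8 in aged AAV-B3GNT3, and changed by -1.10 ± 0.25 (SE; adjusted p = 0.0295). Nr4a2 was at 56.9, 35.6 and 59.5 CPM in young, 27.8, 21.5 and 17.2 in aged AAV-EGFP and 19.6, 34 and 46.2 in treated libraries and changed by -1.15 ± 0.28 (SE; adjusted p = 0.0425). For both genes every aged control library lay below every young one, and the treated libraries overlapped these groups. The call of Nr4a3 was lost without young replicate 1 (-1.12), young replicate 3 (-0.98), aged AAV-EGFP replicate 2 (-0.80) or aged AAV-EGFP replicate 3 (-1.07), and that of Nr4a2 without young replicate 1 (-1.05), young replicate 3 (-1.03), aged AAV-EGFP replicate 2 (-1.09) or aged AAV-EGFP replicate 3 (-1.04). With free RNA subtracted neither passed (-1.16, adjusted p = 0.0538 for Nr4a3 and -1.24, adjusted p = 0.0679 for Nr4a2).

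Among striatal-like neurons, the Drd1 type had 2 of 7 past the threshold with age (2.61% of all genes) and the Drd2 type 1 of 8 (2.97%), and 0 with treatment in each (2 and 1 at an unadjusted p under 0.05, 0 in DESeq2, 0.509% and 0.641%). DESeq2 called 0 in both with age as well. In Drd1 neurons Nr4a3 was at 83.4, 23.8 and 16.2 CPM in young, 13.2, 1.69 and 7.88 in aged AAV-EGFP and 26.3, 36.9 and 20.3 in aged AAV-B3GNT3, and changed by -2.44 ± 0.53 (SE; adjusted p = 0.0231). Npas4 in these neurons was at 46, 36.3 and 40.4 CPM in young, 29.1, 2.82 and 13.5 in aged AAV-EGFP and 26.9, 26.5 and 25.9 in treated libraries and changed by -1.47 ± 0.39 (SE; adjusted p = 0.0478). In Drd2 neurons Nr4a3 was at 66.8, 28.8 and 32.5 CPM in young, 21.9, 0 and 3.41 in aged AAV-EGFP and 28.3, 28.1 and 15.7 in treated libraries, with 0 UMIs in aged AAV-EGFP replicate 2, and changed by -2.58 ± 0.59 (SE; adjusted p = 0.0297).

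Aged AAV-EGFP replicate 2 was low in the Drd1 type throughout, with Egr1 at 24.8 CPM, Arc at 1.69, Npas4 at 2.82, Nr4a1 at 7.90 and Nr4a3 at 1.69, while replicates 1 and 3 of that group had Egr1 at 100.5 and 128 CPM. In Drd1 neurons the call of Nr4a3 was lost without young replicate 1 (-1.51), aged AAV-EGFP replicate 2 (-2.02) or aged AAV-EGFP replicate 3 (-2.49), and that of Npas4 without young replicate 1 (-1.38), young replicate 2 (-1.58), young replicate 3 (-1.47), aged AAV-EGFP replicate 2 (-1.01), aged AAV-EGFP replicate 3 (-1.38), aged AAV-B3GNT3 replicate 1 (-1.47) or aged AAV-B3GNT3 replicate 2 (-1.46). In Drd2 neurons the call of Nr4a3 was lost without young replicate 1 (-2.07), young replicate 3 (-2.70), aged AAV-EGFP replicate 2 (-2.07) or aged AAV-EGFP replicate 3 (-2.05). With free RNA subtracted 0 of these 3 calls held, with log2 changes of -2.76 (adjusted p = 0.0755) for Nr4a3 and -1.55 (adjusted p = 0.1003) for Npas4 in the Drd1 type and -2.72 (adjusted p = 0.0944) for Nr4a3 in the Drd2 type. With the compared groups alone Npas4 in the Drd1 type did not pass either (-1.46, edgeR, adjusted p = 0.0582).

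The remaining 6 types gave 1 call in all. Sst interneurons had 1 of 4 past the threshold with age (1.09%), Homer1 at 229, 267 and 189.8 CPM in young, 128, 126 and 118 in aged AAV-EGFP and 171, 203 and 157 in treated libraries, with changes of -0.88 ± 0.14 (SE; adjusted p = 0.00976) and 0.51 ± 0.15 (SE; adjusted p = 0.133). All aged controls lay below all other libraries, and the fall was lost without aged AAV-EGFP replicate 2 (-0.90). With treatment 0 of 4 passed there, against 0.395% of all genes (4 at an unadjusted p under 0.05, 0 in DESeq2). In Pvalb, Vip and Lamp5 interneurons, near-projecting neurons and dentate granule neurons, 0 of 5, 4, 4, 4 and 6 tested genes passed with age, against 2.61%, 0.480%, 1.02%, 0.804% and 0.824% of all genes. At an unadjusted p under 0.05 there were 2, 1, 2, 3 and 2, and DESeq2 called 1, in dentate granule neurons. With treatment 0 passed in each by edgeR, against 1.56%, 0.664%, 0.784%, 0.197% and 0.0440% of all genes. DESeq2 called 0, and 1, 0, 0, 2 and 3 were at an unadjusted p under 0.05.

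Nr4a3 in Pvalb interneurons was at 15.9, 16.2 and 7.62 CPM in young and 3.77, 5.21 and 4.29 in aged AAV-EGFP, without overlap, and its change of -1.52 ± 0.41 (SE; adjusted p = 0.0503) just missed the threshold. Arc in dentate granule neurons had too few counts for the test. Its levels were 7.6, 8.44 and 4.15 CPM in young, 0 in the 3 aged AAV-EGFP libraries and 4.89, 5.08 and 1.8 in aged AAV-B3GNT3. The UMI counts, of 386507 to 2726394 in all per library, were 8, 7 and 6 in young and 2, 6 and 5 in treated libraries. The upper estimate of free RNA in these neurons was 29.9 to 35.4% of the UMIs in young, 24.2 to 35.3% in aged AAV-EGFP and 26.8 to 29.1% in treated libraries, and its part in these counts was not tested.

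**Figure D3:**
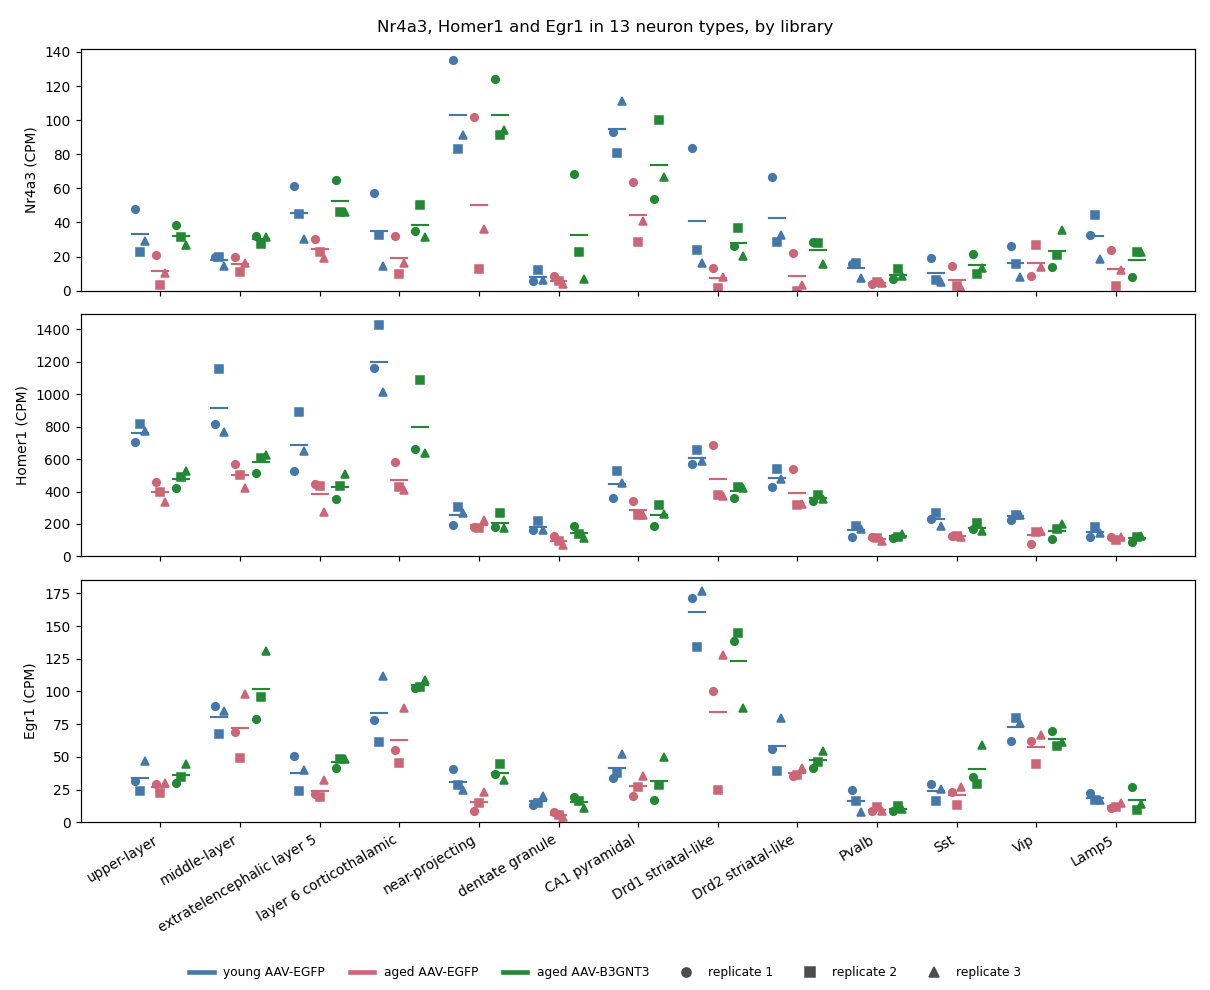
Levels (CPM, linear axes from 0) of Nr4a3, Homer1 and Egr1 in 13 neuron types, with 1 point per library and bars for group means. In layer 6 corticothalamic neurons the 3 aged AAV-EGFP points of Homer1 (580.2, 428 and 410 CPM) lie below the other 6, and in Drd1 neurons the Egr1 point of aged AAV-EGFP replicate 2 lies at 24.8 CPM, far below the rest.

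In young AAV-EGFP libraries the genes were spread over the neuron types in different orders. The highest levels of Egr1 (160.5 ± 23.3 CPM, SD, n = 3) and Junb (62.9 ± 18.3) were in Drd1 striatal-like neurons, above the ranges of the types next in order. Npas4 was also highest there (40.9 ± 4.84), with a range overlapping that of Drd2 neurons. Arc was highest in layer 6 corticothalamic (76.3 ± 24.9 CPM), Drd1 (70.9 ± 17.1) and middle-layer neurons (53.9 ± 11.8), which overlapped each other and stood above CA1 neurons (27 ± 16).

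Nr4a3 was highest in near-projecting (103 ± 27.9 CPM) and CA1 neurons (95 ± 15.3), and their ranges overlapped that of Drd1 neurons (41.1 ± 36.8). Nr4a1 was highest in extratelencephalic layer 5 (121 ± 8.44 CPM) and middle-layer neurons (111 ± 1.53), which overlapped, and lowest in dentate granule neurons (11.2 ± 6.33). Nr4a2 was highest in CA1 neurons (50.6 ± 13.1 CPM), overlapping near-projecting neurons. Homer1 ranged from 148 ± 32.9 CPM in Lamp5 interneurons to 1199 ± 209 in layer 6 corticothalamic neurons. Dentate granule neurons were last or near last for Egr1 (15.9 ± 3.6), Nr4a1 and Nr4a3 (8.0 ± 3.53).

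A neuron cluster that stayed unnamed, of 330 nuclei and led by Tmem163, Col11a1, Ntng2 and Col24a1, had Nr4a2 at 424.9 ± 64.5 CPM over the 9 libraries (SD, range 314.6 to 524.2). This was far above every named type. A further unnamed cluster of 436 nuclei, led by Cobll1, Rmst and Rxfp1, had 174 ± 42.3 CPM. The first cluster had 15 to 61 nuclei by library and the second 10 to 92. Their part in the Nr4a2 levels of summed excitatory neurons was not tested. Nr4a2 is known as a marker of the claustrum, layer 6b and the deep part of the cortex.

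The share of nuclei that carried UMIs of several of the 10 genes was compared after each nucleus was thinned to 2000 UMIs. In excitatory neurons, at least 2 genes were found in 26.5, 25.7 and 27% of nuclei in young AAV-EGFP replicates 1 to 3, 17.6, 14.7 and 21.9% in aged AAV-EGFP and 22.2, 24.6 and 24.8% in aged AAV-B3GNT3. All aged controls lay below all treated libraries, and these below all young ones. The difference was -8.37 percentage points with age and 5.80 with treatment, each with an exact two-sided permutation p of 0.1, the smallest that 3 against 3 can give (0.417 after Benjamini-Hochberg adjustment over 484 comparisons). The groups overlapped when Homer1 was not counted (-3.26 points with age, exact permutation p = 0.2) and, between aged controls and treated libraries, with nuclei as sequenced (4.80 points, exact permutation p = 0.3). In inhibitory neurons the shares were 17.2, 17.2 and 12.9% in young, 11.2, 3.67 and 12.1% in aged AAV-EGFP and 14.6, 15.4 and 14.2% in treated libraries, with aged AAV-EGFP replicate 2 the lowest, and the differences were -6.80 and 5.75 points (exact permutation p = 0.1 each).

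Oligodendrocytes, taken for comparison, gave 7.28, 7.96 and 7.83% in young, 3.38, 4.06 and 2.64% in aged AAV-EGFP and 4.8, 5.73 and 5.5% in treated libraries, with a like order of groups (-4.33 and 1.98 points, exact permutation p = 0.1). The median depth per library before thinning was 8409.5 to 11801 UMIs in excitatory neurons and 1531 to 2492.5 in oligodendrocytes, of which 2111, 4554 and 3549 nuclei in the 3 groups were too shallow and were left out. In aged AAV-EGFP replicate 2 the share in inhibitory neurons (3.67%) was no higher than that in oligodendrocytes (4.06%).

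Nr4a3 was found in 8.52, 5.93 and 5.46% of young excitatory neuron nuclei, 5.5, 1.94 and 2.89% of aged AAV-EGFP nuclei and 7.24, 7.92 and 6.61% of aged AAV-B3GNT3 nuclei. Homer1 was found in 54.6, 61.5 and 57.2% of young, 44.6, 43.1 and 46.1% of aged AAV-EGFP and 48.4, 48.9 and 46.5% of treated nuclei. The aged libraries of Homer1 lay below the young ones without overlap. In oligodendrocytes Nr4a3 was found in 2.52, 2.04 and 2.06% of young nuclei and Homer1 in 29.7, 36.1 and 35.1%.

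**Figure D4:**
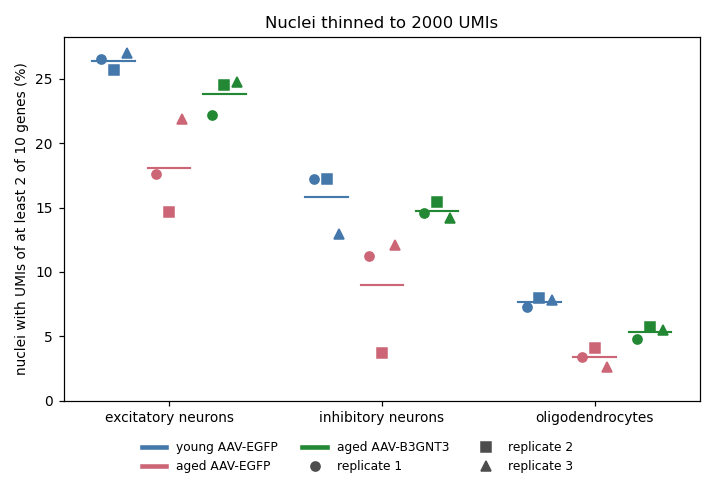
Share of nuclei (%, axis from 0, nuclei thinned to 2000 UMIs) with UMIs of at least 2 of the 10 genes, with 1 point per library and bars for group means. In excitatory neurons the young points lie at 25.7 to 27.0%, the aged AAV-EGFP points at 14.7 to 21.9% and the aged AAV-B3GNT3 points at 22.2 to 24.8%.

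Genes known to work beside the 10 were counted in 3 lists. In excitatory neurons with age, the rapid response list (such as Egr3, Fosl2 and Sik1) had 1 gene higher and 5 lower of 22 tested (median -0.20). The late response list (such as Bdnf, Vgf and Pcsk1) had 2 lower of 17 (median -0.25), and the list of upstream kinases, cofactors and factors 5 lower of 18 (median -0.16), beside a median of 0.02 over all genes tested, of which 14.1% passed. With treatment 0 genes of each list passed in edgeR, against 2.46% of all genes. At an unadjusted p under 0.05 there were 8, 5 and 6. For genes spanning up to 41295 bases, the length of Nr4a3, the median with age was 0.09, with 919 higher and 472 lower of 10967 tested. With an offset for the trend with gene span these were 593 higher and 817 lower, and the rapid list had 0 higher and 7 lower.

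Egr3, a zinc finger factor of the Egr1 family, was at 35.2, 28.1 and 38.8 CPM in young, 20.4, 11.8 and 18.2 in aged AAV-EGFP and 24.4, 31.9 and 24.2 in treated excitatory neurons, with all aged controls below all other libraries. It changed by -1.03 ± 0.20 (SE; adjusted p = 0.0104). Fosl2, an AP-1 subunit, changed by -0.82 ± 0.22 (SE; adjusted p = 0.0293), and Sik1, a kinase that restrains CREB coactivators, by -0.84 ± 0.22 (SE; adjusted p = 0.0291). Pcsk1, which cleaves neuropeptide precursors, changed by -0.71 ± 0.11 (SE; adjusted p = 0.00621), and Elk1, a partner of SRF, by -0.73 ± 0.16 (SE; adjusted p = 0.0138). Jund, an AP-1 subunit that is present at rest, was the exception and changed by 0.76 ± 0.18 (SE; adjusted p = 0.0182), with 10.8, 8.7 and 10 CPM in young and 12.6, 19.97 and 17.2 in aged controls. With the offset for gene span the rise of Jund did not pass. Of the 12 list genes past the threshold with a mean of at least 50 counts per library, 2 still passed without aged AAV-EGFP replicate 2 (Egr3 and Pcsk1), 3 without replicate 3 of that group, 1 without young replicate 3 and 6 without young replicate 1 or 2.

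Summed over the 13 neuron types, the rapid list had 4 genes higher and 10 lower with age of 114 pairs of gene and type tested, the late list 9 lower of 160 and the upstream list 7 lower of 210. With treatment the rapid list had 5 higher and 2 lower, the late list 1 higher and the upstream list 0 (26 at an unadjusted p under 0.05). By type, 0.480 to 14.1% of all genes passed with age and 0.0440 to 3.49% with treatment. Egr3 rose with treatment in middle-layer (1.06 ± 0.22 SE, adjusted p = 0.038) and layer 6 corticothalamic neurons (1.22 ± 0.25 SE, adjusted p = 0.013). Per1, a clock gene that also responds to activity, rose in upper-layer (0.66 ± 0.17 SE, adjusted p = 0.0438) and layer 6 corticothalamic neurons (0.82 ± 0.20 SE, adjusted p = 0.0289). In upper-layer neurons Pcsk1 rose (0.84 ± 0.16 SE, adjusted p = 0.0158) and Ier5 fell (-0.99 ± 0.25 SE, adjusted p = 0.0463). Of these 6 calls 0 held without aged AAV-EGFP replicate 2, aged AAV-B3GNT3 replicate 1 or aged AAV-B3GNT3 replicate 2. With free RNA subtracted 3 held, Egr3 and Per1 in layer 6 corticothalamic neurons and Pcsk1.

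In inhibitory neurons with age the rapid list had 1 higher and 1 lower of 17, the late list 0 of 18 and the upstream list 2 lower of 18, against 3.84% of all genes. The genes past the threshold were Jund (1.06 ± 0.17 SE, adjusted p = 0.0164), Fosl2 (-1.12 ± 0.22 SE, adjusted p = 0.0265), Elk1 (-0.82 ± 0.16 SE, adjusted p = 0.0248) and Ep300, a histone acetyltransferase (-0.45 ± 0.12 SE, adjusted p = 0.0496). Of these 4 calls 0 held without aged AAV-EGFP replicate 2, aged AAV-EGFP replicate 3 or young replicate 1, and 1 without young replicate 3.

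By Pearson's r over the 9 libraries with the mean standardised level of the 10 genes in excitatory neurons, the most alike of 12726 genes outside the lists with a mean of at least 50 counts per library were Synpo (r = 0.945), Rgs8 (0.939), B4galt4 (0.935), Dusp14 (0.934) and Lats1 (0.934). Synpo, an actin-binding protein of dendritic spines, was at 65.6, 56.2 and 64.7 CPM in young, 47.6, 36.9 and 50.6 in aged AAV-EGFP and 53.8, 54.1 and 50.6 in aged AAV-B3GNT3. The points share library depth and the reference group, so these values describe a pattern only.

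In glia, 9 of 10 genes tested were lower with age in oligodendrocytes and 9 of 9 in astrocytes. Oligodendrocytes (20380 nuclei) had 4 of 10 past the threshold with age (19.8% of all genes) and 0 with treatment (3 at an unadjusted p under 0.05, 0 in DESeq2, 6.71%). Astrocytes had 4 of 9 (11.4%) and 0 with treatment (1 at an unadjusted p under 0.05, 0 in DESeq2, 3.86%). In oligodendrocytes Homer1 was at 199, 298 and 217 CPM in young, 114, 131 and 106 in aged AAV-EGFP and 134, 187 and 153 in aged AAV-B3GNT3, and changed by -1.02 ± 0.17 (SE; adjusted p = 0.00445). Npas4, a gene known from neurons, was at 6.89, 6.73 and 7.1 CPM in young, 2.8, 2.41 and 2.58 in aged AAV-EGFP and 3.99, 3.51 and 6.21 in treated libraries (-1.40 ± 0.30 SE, adjusted p = 0.00879), and Nr4a3 changed by -1.29 ± 0.30 (SE; adjusted p = 0.0124) and Egr1 by -0.66 ± 0.21 (SE; adjusted p = 0.0446). The call of Egr1 was lost without young replicate 1 (-0.64), young replicate 2 (-0.56), young replicate 3 (-0.77), aged AAV-EGFP replicate 1 (-0.49), aged AAV-EGFP replicate 3 (-0.51), aged AAV-B3GNT3 replicate 1 (-0.66), aged AAV-B3GNT3 replicate 2 (-0.66) or aged AAV-B3GNT3 replicate 3 (-0.64). In edgeR it was also lost with the compared groups alone (adjusted p = 0.0874). With no upper limit on genes Egr1 (edgeR, adjusted p = 0.0899) and Npas4 (edgeR, adjusted p = 0.0828) did not pass.

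In astrocytes Arc was at 10.1, 12.1 and 17.6 CPM in young, 3.34, 2.46 and 3.38 in aged AAV-EGFP and 4.75, 7.03 and 4.97 in treated libraries, with all aged libraries below the young ones, and changed by -2.06 ± 0.35 (SE; adjusted p = 0.00306). Nr4a1 changed by -1.21 ± 0.27 (SE; adjusted p = 0.0117), Homer1 by -1.11 ± 0.17 (SE; adjusted p = 0.0019) and Egr1 by -0.85 ± 0.26 (SE; adjusted p = 0.0441). With doublets kept none of these astrocyte calls held in edgeR. Arc was then at -1.22 (adjusted p = 0.0738), Nr4a1 at -0.32 (adjusted p = 0.462), Homer1 at -0.76 (adjusted p = 0.0523) and Egr1 at -0.64 (adjusted p = 0.0884). In edgeR Egr1 was also lost with other scaling (adjusted p = 0.0517) and with the compared groups alone (adjusted p = 0.0839). The same held with no upper limit on genes (adjusted p = 0.0706). The call of Nr4a1 was lost without aged AAV-EGFP replicate 3 (-0.83), and that of Egr1 without young replicate 1 (-0.79), young replicate 2 (-0.82), young replicate 3 (-0.92), aged AAV-EGFP replicate 1 (-0.66), aged AAV-EGFP replicate 3 (-0.60), aged AAV-B3GNT3 replicate 1 (-0.83), aged AAV-B3GNT3 replicate 2 (-0.86) or aged AAV-B3GNT3 replicate 3 (-0.82). The upper estimate of free RNA was 36.4 to 58.1% of the UMIs in oligodendrocytes and 28.2 to 40.2% in astrocytes. With that estimate subtracted, 0 of the 9 calls with age in glia and vessel classes held. Of these, 4 genes had too few counts left for the test, and Homer1 was at -2.84 in oligodendrocytes (adjusted p = 0.193, edgeR) and -2.72 in astrocytes (adjusted p = 0.0832). Free neuronal RNA and expression by the glia cannot be told apart here.

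In oligodendrocyte precursors 0 of 6 tested genes passed with age (1 at an unadjusted p under 0.05, 1 in DESeq2, 0.598%) or with treatment (0 and 0, 0.0665%). In microglia 0 of 4 passed with age (2 at an unadjusted p under 0.05, 0 in DESeq2) or treatment (1 and 0), where 0% and 0% of all genes passed. Microglial Junb was at 13.8, 18.4 and 15.2 CPM in young, 20.8, 88.5 and 58.8 in aged AAV-EGFP and 12.8, 20.6 and 27.8 in aged AAV-B3GNT3, and replicates 2 and 3 of aged AAV-EGFP were the highest of the 9. The upper estimate of free RNA in microglia was 48.4 to 59.2% of the UMIs in young libraries. It was 43.1 to 95.9% in aged AAV-EGFP, highest in replicate 2, and 55.4 to 59.8% in treated libraries. With it subtracted, 0 members passed with age or treatment in the glia and vessel classes, microglia among them. Its part in the levels above was not tested beyond that.

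In brain endothelial cells (753 nuclei), the cells the virus addresses, 0 of 5 tested genes passed in edgeR with age or treatment. Of all genes 0% and 0.131% passed. At an unadjusted p under 0.05 there were 4 with age and 3 with treatment. DESeq2 called 0 with age and 2 with treatment, Junb and Nr4a1, and its share of all genes is not given. Nr4a1 was at 78.5, 52.9 and 128 CPM in young, 24.4, 427 and 345 in aged AAV-EGFP and 44.2, 41 and 45.6 in aged AAV-B3GNT3. Replicates 2 and 3 of the aged controls were the highest and replicate 1 the lowest of the 9, with changes of 1.67 ± 0.60 (SE; adjusted p = 0.263) and -2.62 ± 0.67 (SE; adjusted p = 0.117). In aged AAV-EGFP replicate 2 its 61 UMIs came from 31 of 67 nuclei, in replicate 3 54 UMIs from 34 of 90, and in replicate 1 3 UMIs from 3 of 53. The upper estimate of free RNA in endothelial cells was 37.3 to 49.5% of the UMIs in young libraries. It was 38.0 to 55.1% in aged AAV-EGFP and 42.3 to 84.2% in treated libraries. With it subtracted, 0 members passed with age or treatment in the glia and vessel classes, these cells among them. Its part in the counts above was not tested beyond that.

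Junb in endothelial cells was at 37.4, 57.3 and 58.1 CPM in young, 73, 308 and 153 in aged AAV-EGFP and 18.9, 54.6 and 19.5 in treated libraries, and every aged control library lay above every young and treated library. The changes were 1.83 ± 0.49 (SE; adjusted p = 0.123) and -2.42 ± 0.54 (SE; adjusted p = 0.0958). Nr4a2 was at 56.1, 39.7 and 46.5 CPM in young, 64.9, 154 and 141 in aged AAV-EGFP and 31.6, 31.9 and 58.6 in treated libraries, with the aged controls again above the rest. Its change was 1.33 ± 0.40 (SE; adjusted p = 0.169) with age and -1.59 ± 0.42 (SE; adjusted p = 0.119) with treatment.

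In pericytes or smooth muscle cells (957 nuclei), which wrap the vessels, Egr1 rose with age and fell with treatment, 1 of 3 tested genes in each, against 6.51% and 0.669% of all genes. It was at 81.2, 85.1 and 49.5 CPM in young, 85.6, 616 and 142 in aged AAV-EGFP and 36.5, 40.8 and 40.8 in aged AAV-B3GNT3. Aged AAV-EGFP replicate 2 stood far above the rest, with 112 UMIs from 54 of 125 nuclei and at most 6 in 1 nucleus. The changes were 2.04 ± 0.51 (SE; adjusted p = 0.0255) with age and -2.91 ± 0.55 (SE; adjusted p = 0.0249) with treatment. The rise was lost without young replicate 1 (2.14), young replicate 2 (2.15), young replicate 3 (1.83) or aged AAV-EGFP replicate 2 (0.74), and the fall without young replicate 3 (-2.88), aged AAV-EGFP replicate 2 (-1.59), aged AAV-B3GNT3 replicate 1 (-2.83), aged AAV-B3GNT3 replicate 2 (-2.92) or aged AAV-B3GNT3 replicate 3 (-2.91). Free RNA made up at most 41.6 to 66.5% of the UMIs in young, 52.9 to 62.4% in aged AAV-EGFP and 42.9 to 59.0% in treated libraries. With that estimate subtracted neither change passed (2.49, adjusted p = 0.122 with age and -4.14, adjusted p = 0.0624 with treatment), nor did it with the compared groups alone (2.04, adjusted p = 0.0714 and -2.89, adjusted p = 0.112). With an offset for gene span the rise with age did not pass (1.435, edgeR, adjusted p = 0.0758). Junb had too few counts there for the test and was at 14.1, 15.9 and 14.8 CPM in young, 0, 143 and 49.1 in aged AAV-EGFP and 12.2, 37.1 and 58.3 in treated libraries.

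Fibroblasts had 0 of 2 past the threshold with age (0 at an unadjusted p under 0.05, 0 in DESeq2, 2.83%) and with treatment (1 and 0, 0.222%), and Egr1 was at 57.8, 63.4 and 126 CPM in young, 80.5, 136 and 107 in aged AAV-EGFP and 55.4, 29.2 and 47.1 in treated libraries. Of the rapid response list, whose genes in these small classes had few counts and were picked for naming after their values were seen, 3 of 5 tested genes rose with age in pericytes or smooth muscle, which were Jund (1.92 ± 0.41 SE, adjusted p = 0.011), Btg2 (1.54 ± 0.45 SE, adjusted p = 0.0493) and Per1 (1.71 ± 0.43 SE, adjusted p = 0.0275). The late list had 0 of 4 past the threshold there (2 at an unadjusted p under 0.05), and the upstream list 1 higher and 2 lower of 13, with falls of Camk4 (-1.73 ± 0.40 SE, adjusted p = 0.0178) and Ppp3ca (-0.77 ± 0.19 SE, adjusted p = 0.0278), where 6.51% of all genes passed. In fibroblasts 3 of 7 of the rapid list rose, Jund (1.5 ± 0.37 SE, adjusted p = 0.039), Btg2 (1.62 ± 0.36 SE, adjusted p = 0.0215) and Cyr61 (3.32 ± 0.60 SE, adjusted p = 0.00875), a matrix protein gene at 8.9, 22.9 and 20.5 CPM in young, 20.1, 350.3 and 141 in aged AAV-EGFP and 55.4, 39 and 85.3 in aged AAV-B3GNT3. The late list had 0 of 5 past the threshold in fibroblasts (2 at an unadjusted p under 0.05), and the upstream list 2 lower of 14, Camk2a (-1.02 ± 0.24 SE, adjusted p = 0.0333) and Mef2c (-0.78 ± 0.20 SE, adjusted p = 0.0473), against 2.83% of all genes. With treatment 1 of 7 of the rapid list fell there, Btg2 (-2.05 ± 0.38 SE, adjusted p = 0.0352), against 0.222%. Without aged AAV-EGFP replicate 2, 0 of the 5 list calls with age in fibroblasts held and Btg2 with treatment did not pass, and in pericytes or smooth muscle 2 of 6 held, Camk4 and Ppp3ca. In pericytes or smooth muscle 1 of 6 held without young replicate 1, young replicate 2 or aged AAV-EGFP replicate 3. In fibroblasts 1 of 5 held without young replicate 1 or young replicate 3. Btg2 with treatment was also lost there without young replicate 1 or any single aged AAV-B3GNT3 library. The upper estimate of free RNA in fibroblasts was 26.7 to 47% of the UMIs. With it subtracted 0 of the 5 held in fibroblasts, where Camk2a and Mef2c had too few counts left for the test, and 1 of the 6 in pericytes or smooth muscle, Ppp3ca.

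In oligodendrocytes the rapid list had 4 higher of 20 with age, the late list 1 lower of 16 and the upstream list 2 higher and 6 lower of 18, against 19.8% of all genes, and with treatment the rapid list had 3 lower of 20, against 6.71%. The upstream genes that were lower included the calcium-dependent kinases Camk4 (-1.20 ± 0.22 SE, adjusted p = 0.00494) and Camk2a (-0.95 ± 0.20 SE, adjusted p = 0.00843), which are known from neurons and had too few counts left for the test once free RNA, at most 36.4 to 58.1% of the UMIs, was subtracted. Of the 12 list calls with age that had a mean of at least 50 counts per library, 1 held with it subtracted (Rps6ka3), and 6 held without aged AAV-EGFP replicate 2. Of the 3 rapid list calls with treatment (Jun, Jund and Ier5), 0 held with free RNA subtracted. Likewise 0 of the 3 held without aged AAV-EGFP replicate 2, aged AAV-B3GNT3 replicate 1 or aged AAV-B3GNT3 replicate 2. Jun was at 6.71, 5.38 and 8.58 CPM in young, 12.5, 37.6 and 17.5 in aged AAV-EGFP and 5.98, 7.21 and 7.56 in treated libraries and changed by 1.72 ± 0.36 (SE; adjusted p = 0.00827) with age and -1.69 ± 0.35 (SE; adjusted p = 0.0206) with treatment. Without aged AAV-EGFP replicate 2 Jun changed by 1.17 with age (adjusted p = 0.0252) and was at -1.14 with treatment (adjusted p = 0.0617), and with free RNA subtracted neither passed (1.9, adjusted p = 0.0608 with age and -1.9, adjusted p = 0.0987 with treatment). Aged AAV-EGFP replicate 2 held the highest value of Jun and of the named rapid list genes of the vessel classes in each case, in the same library that held the lowest levels of Nr4a3 and Arc in summed excitatory and inhibitory neurons, and what moved with that library was not tested.

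**Figure D5:**
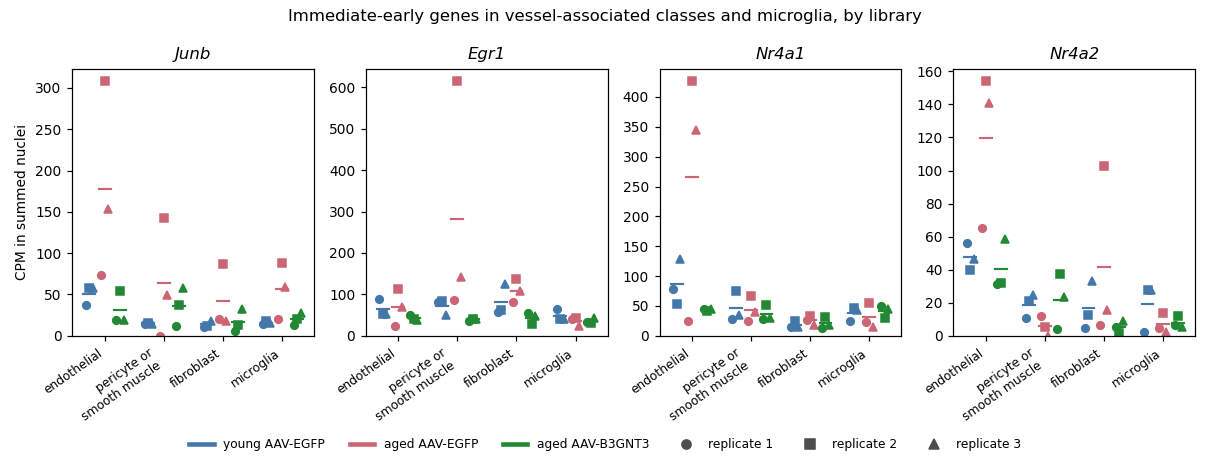
Levels (CPM, linear axes from 0, own scale per gene) of Junb, Egr1, Nr4a1 and Nr4a2 in brain endothelial cells, pericytes or smooth muscle cells, fibroblasts and microglia, with 1 point per library and bars for group means. Aged AAV-EGFP replicate 2 (square) is the highest point for Junb in endothelial cells (308 CPM), Egr1 in pericytes or smooth muscle (616 CPM) and Nr4a1 in endothelial cells (427 CPM).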

How the data were processed

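Single-nucleus RNA was measured in 9 libraries, each of 1 mouse. The authors deposited filtered matrices of raw UMI counts per gene and barcode. Their notes name Cell Ranger 4.0.0 and build mm10, while the matrix headers name 7.2.0, and whether intronic reads were counted is not given in the sources used here. The deposited matrices are as the counting tool gave them, before any removal of free RNA or doublets.

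A nucleus was kept with 200 to 5000 genes and no more than 10% of UMIs from mitochondrial genes, and doublets were marked by score at a rate of 0.8% per 1000 barcodes (5.07 to 8.21% of a library). Nuclei were clustered by the Leiden method on a graph of shared nearest neighbours (scikit-learn 1.9.0, Python 3.11.15). The 10 genes and the related lists were left out, and classes were named from marker genes. The members, lists and tests were chosen with earlier results of these data known. The rule for naming genes took all 10 members in every class, and list genes past an adjusted p of 0.05 with a mean of at least 50 counts per library, up to 6 per comparison. The text names fewer than that rule allows, gives members elsewhere by counts, and names some list genes of vessel classes with lower means, chosen after their values were seen.

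Counts were summed per library and class (at least 10 nuclei in every library) or neuron type (at least 30) and fitted over all 9 libraries with edgeR 4.0.16 (R 4.3.3), TMM scaling, filterByExpr at a minimum count of 10 and the quasi-likelihood test with Benjamini-Hochberg adjustment. Limma 3.58.1 tested the difference between neuron classes, and DESeq2 1.42.0 was an alternative, as were other scaling, no filter, subtraction of free RNA, an offset for gene span, the compared groups alone, the replicate block and leaving out each library. For list genes past the threshold, subtraction of free RNA and leaving out each library were chosen after seeing the data. Shares of nuclei were compared with exact two-sided permutation tests.

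The same replicate numbers across groups were not shown to pair the samples. Of 9 correlations of same-numbered deviations over all genes, 2 were over 0.1 in excitatory neurons (-0.258 to 0.232) and 2 in inhibitory neurons (-0.154 to 0.288). In excitatory neurons replicate 3 was the highest of each group for Fos, Egr1, Arc and Junb, but not for the other members. Whether same-numbered libraries shared a batch was not tested.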

Additional observations from a re-analysis of the deposited data

Results flagged for a closer look

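Egr1 differed in its change with age between pericytes or smooth muscle cells (2.04 on the log2 scale) and astrocytes (-0.85), a gap of 2.90. Each change passed the threshold, in opposite directions. The difference itself was not tested. The rise in pericytes or smooth muscle was 0.74 without aged AAV-EGFP replicate 2, and the fall in astrocytes lost the threshold in 8 of the 9 fits that left out a library.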

How the results depend on the processing

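Of 33 changes of single genes past the threshold, none reversed under an alternative, and leaving out aged AAV-EGFP replicate 2 lost the most, 18. Subtracting the free RNA estimate lost 15 of 29, DESeq2 8, the compared groups alone 8, the offset for gene span 2, other scaling 1 and no filter 0, and, of the 14 that could be compared, keeping doublets lost 4 and no upper limit on genes 4. Among glia and vessel classes, 0 of the 9 calls with age held with free RNA subtracted. The counts of members past the threshold moved as follows, and the cause was not tested. Shares of all genes under these settings are not given, so the moves are not set against all genes. With age in excitatory neurons (2) the count was 1 with DESeq2, 1 with free RNA subtracted, 1 with the compared groups alone, 1 with no upper limit on genes and 4 with the span offset, and with treatment (0) it was 1 with no filter. In inhibitory neurons it was 5 with no filter with age (1), 1 with DESeq2 and 1 with no filter with treatment (0), and 1 with no filter between treated aged and young mice (0). In glia and vessel classes with age (9) it was 18 with no filter, 0 with free RNA subtracted and 5 with doublets kept, and with treatment (1) 3 with DESeq2, 5 with no filter, 0 with free RNA subtracted and 0 with the compared groups alone. In the 13 neuron types, where no filter raised the pairs of gene and type tested from 88 to 130, with age (16) it was 39 with no filter and 10 with free RNA subtracted, and with treatment (3) 19 with no filter, 1 with free RNA subtracted, 5 with the span offset and 5 with the compared groups alone.

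With the replicate block, whose numbers were not shown to pair the samples, the count in excitatory neurons was 4 with age and 1 with treatment, in glia and vessel classes 2 with treatment and in neuron types 8 with treatment, and the call of Nr4a2 in CA1 neurons was lost.

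Over fits that left out 1 library, excitatory neurons had 1 to 3 members past the threshold with age, 0 to 1 with treatment and 0 to 1 between treated aged and young mice, and inhibitory neurons 0 to 3, 0 to 1 and 0 to 0. Glia and vessel classes had 6 to 13 with age and 0 to 6 with treatment. Neuron types had 5 (without aged AAV-EGFP replicate 2) to 31 (without replicate 1) with age and 0 to 11 (without replicate 1) with treatment. The share of all genes past the threshold in these fits is not given. The difference in the share of nuclei with at least 2 genes was -10.29 to -6.68 points with age and 4.10 to 7.72 with treatment in excitatory neurons, and -8.36 to -4.14 and 3.08 to 7.30 in inhibitory neurons. With nuclei as sequenced it was -8.23 and 4.80 points in excitatory neurons and -14.87 and 10.95 in inhibitory neurons (exact permutation p = 0.3 and 0.2 with treatment, where the groups then overlapped), with at least 3 genes -3.36 and 2.67, and -2.32 and 1.72, and without Homer1 -3.26 (exact permutation p = 0.2) and 3.43, and -2.99 and 2.70.

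Signs changed only for values that were not past the threshold. In excitatory neurons Nr4a2 with treatment was 0.035 with free RNA subtracted, Nr4a3 between treated aged and young mice -0.0035 with DESeq2 and -0.076 with the span offset, and the Homer1 share with treatment -0.089 points as sequenced. In inhibitory neurons Junb with treatment was 0.051 with the span offset. Over single libraries left out, the log2 change in excitatory neurons ran from -0.52 to 0.082 for Fos with age, -0.11 to 0.038 for Nr4a2, -0.12 to 0.61 for Fos and -0.13 to 0.22 for Npas4 with treatment, and -0.13 to 0.23 for Nr4a3 between treated aged and young mice. In inhibitory neurons it ran from -0.67 to 0.21 for Junb with age and, with treatment, -0.13 to 0.9985 for Nr4a2, -0.50 to 0.40 for Junb, -0.26 to 0.12 for Homer1, -0.21 to 0.24 for Fos, -0.12 to 0.94 for Arc and -0.16 to 0.80 for Npas4. Low counts left 2 to 5 of the 10 genes to test in vessel classes and 4 in microglia and in near-projecting, Sst, Vip and Lamp5 neurons.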
